A study of Mus musculus with 38 samples.

Results

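The regions described here are distal peaks of histone H3 acetylated at lysine 27 (H3K27ac) that were listed in mouse cortical neurons after depolarisation with KCl, that overlapped no H3K27ac peak listed in unstimulated neurons, and that held none of the deposited distal sites with CBP and H3K4me1. There were 3592 such regions among the 18556 distal H3K27ac peaks of the KCl list, or 19.4% (Wilson 95% interval 18.8% to 19.9%). They are called gained peaks outside CBP sites below. They were chosen by the KCl and unstimulated H3K27ac lists and the list of 11830 CBP positions, so their acetylation is described without a test, and only the AP-1 libraries, which took no part in the choice, were tested.

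Acetylation of this lysine marks active promoters and enhancers, and CBP is one of the enzymes that place it. c-Fos and FosB are AP-1 proteins whose genes are induced by neuronal activity, and they bind DNA as dimers with Jun proteins such as JunB. H3K4me1 is a mark found at enhancers whether or not they are active.

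The study mapped activity-dependent enhancers by chromatin immunoprecipitation and sequencing in cortical neurons of C57BL/6 embryos (day 16.5), used after 7 days in vitro. All cultures were first silenced overnight with TTX (1 µM), a blocker of sodium channels, and DL-AP5 (100 µM), a blocker of NMDA receptors. The KCl groups were then depolarised for 2 h, and the unstimulated groups stayed silenced. H3K27ac was mapped with antibody ab4729 in biological samples 1 and 2, and the authors deposited 1 list per condition with both samples merged, so the H3K27ac peaks carry no replicate error. In biological samples 3 and 4, KCl and unstimulated neurons were mapped for c-Fos with antibody sc52 and with antibody sc7202 and for FosB with sc48. JunB was mapped with sc46 in biological sample 4 alone. In biological samples 5 and 6, all neurons received KCl together with an shRNA against c-Fos, an shRNA against FosB or a control shRNA. c-Fos was mapped with sc52 under c-Fos shRNA and control shRNA, and FosB with sc48 under FosB shRNA and control shRNA. Nothing in the lists measures the cell types of the cultures, and peak lists hold no expression with which the label could be checked.

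The 22 AP-1 lists held between 557 and 28885 peaks each, 1 library per list. The depth of the libraries is unknown, because the lists hold peaks and not reads, and a longer list can place more peaks in any set of regions. A region is called occupied in a library when it shared at least 1 bp with a peak of that library's list. Each peak carries the authors' MACS score, which rises with the negative log10 of the peak's p-value and starts at 50, for 1e-05. Positions are those of genome build mm9, counted from 1. Sequence, motifs and nearest genes were not analysed here.

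The gained peaks outside CBP sites were narrower and scored lower than the distal acetylation present in both conditions. Their median width was 1759 bp (from 954 to 6394 bp) and their median score 83.3 (from 50 to 1380.28). The 9985 KCl distal peaks that overlapped an unstimulated peak and held no CBP site, called shared below, had a median width of 2280 bp and a median score of 198. The 1232 gained peaks that did hold a CBP site lay between them, at 2086 bp and 110. The 5134 distal peaks listed only in unstimulated neurons and holding no CBP site, called lost below, were much like the gained ones, at 1752 bp and 89.1. All of these values come from the lists that defined the classes and are given as description.

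Of all KCl distal peaks, 26% (4824) overlapped no unstimulated peak, and the gained peaks outside CBP sites were 3592 of these, or 74.5%. Many were close to the limit of detection, with 650 scoring under 60, while 1295 scored 100 or more. The 3 closest to the limit set by unstimulated peaks were chr15:44528452-44529783, chr13:45755886-45758340 and chr3:81907798-81909236, with gaps of 3, 54 and 87 bp to an unstimulated peak and scores of 50.69, 175.45 and 55.67. The 3 just beyond that limit were chr10:39176698-39177988, chrX:149673895-149675215 and chr8:72855423-72856850, which overlapped an unstimulated peak by 16, 24 and 31 bp and scored 52.79, 62.62 and 75.02. In all, 181 of the 3592 lay within 1000 bp of an unstimulated peak and 44 within 1000 bp of a CBP site, the nearest of them at 34 bp, so that few of them sat at the edge of the definition.

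Most gained peaks outside CBP sites stood well apart from unstimulated acetylation and from the CBP sites. The median distance was 18114 bp to the nearest unstimulated H3K27ac peak and 50412 bp to the nearest CBP site. The nearest KCl H3K27ac peak that was not distal lay at a median of 74233.5 bp. Another region of the same kind lay within 10000 bp of 380 of them (10.6%). The authors also sorted the CBP sites by the behaviour of their acetylation. An increasing site lay within 10000 bp of 167 gained peaks outside CBP sites (4.65%), and a decreasing site within the same distance of 18 (0.501%). Among the lost peaks the order was the other way round, at 1.07% near an increasing site and 2.38% near a decreasing one, and among the shared peaks the values were 2.52% and 1.08%. How these classes were made is not known here, and the distances are a description with no test.

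By chromosome, the share of KCl distal peaks that were gained outside CBP sites was highest on chromosome X, at 24.2% (61 of 252, Wilson interval 19.3% to 29.9%), and lowest on chromosome 11, at 15.9% (174 of 1094, 13.9% to 18.2%). The other autosomes lay between 17% on chromosome 4 and 22.8% on chromosome 3. These intervals cover counting error only.

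c-Fos was mapped in the most libraries, and it was listed at far more of these regions after KCl than in silenced neurons. With sc52, c-Fos peaks occupied 611 (17.01%) and 329 (9.16%) of the 3592 regions in KCl neurons of biological samples 3 and 4, against 27 (0.752%) and 8 (0.223%) in unstimulated neurons. With sc7202 they occupied 886 (24.7%) and 704 (19.6%) in KCl neurons, against 21 (0.585%) and 9 (0.251%) in unstimulated neurons. Every KCl library lay above every unstimulated library. The mean share was 17.6 ± 6.47% in KCl neurons and 0.452 ± 0.259% in unstimulated neurons (SD, n = 4 libraries each), a difference of 17.2 percentage points (exact two-sided permutation test over 70 splits, p = 0.0286, the smallest p this design can give). Over all KCl distal peaks the same libraries had mean shares of 20.1% in KCl neurons and 1.13% in unstimulated neurons, a difference in the same direction. Each condition rests on 2 cultures, however. Differences taken within biological sample and antibody (the replicate block) gave p = 0.13 in an exact sign-flip test, as low as 4 pairs can go. The 4 pairs are 2 antibodies in the same 2 cultures, so this test does not count cultures either.

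List length moved with this difference. The KCl c-Fos lists were longer than their unstimulated partners by 6.10 and 3.60 times with sc52 and by 16.3 and 29.2 times with sc7202. When only the 557 best-scoring peaks of each list were kept, the mean share of the gained peaks outside CBP sites that were occupied was 0.773% in KCl neurons and 0.174% in unstimulated neurons, a difference of 0.599 points (exact two-sided permutation test, p = 0.0571). The share of a list's own peaks that fell in the regions was also taken. It was 2.80% and 4.86% for sc52 and 3.19% and 4.45% for sc7202 in KCl neurons of biological samples 3 and 4, against 0.790% and 0.423% for sc52 and 1.30% and 2.15% for sc7202 in unstimulated neurons. Again no KCl library overlapped the unstimulated ones, and in KCl neurons the longer list of each antibody had the lower share. The means were 3.83 ± 0.985% and 1.17 ± 0.750% (SD, n = 4 libraries each), a difference of 2.66 points (exact two-sided permutation test, p = 0.0286; p = 0.13 with the block). With lists of equal length the difference was 3.64 points (exact permutation p = 0.0857), and with c-Fos peaks that scored 100 or more it was 2.83 points (p = 0.0571 in the same exact test). Neither these shares nor the values at equal list length were taken over all KCl distal peaks. They therefore do not set these regions apart from other distal acetylation.

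**Figure D1:**
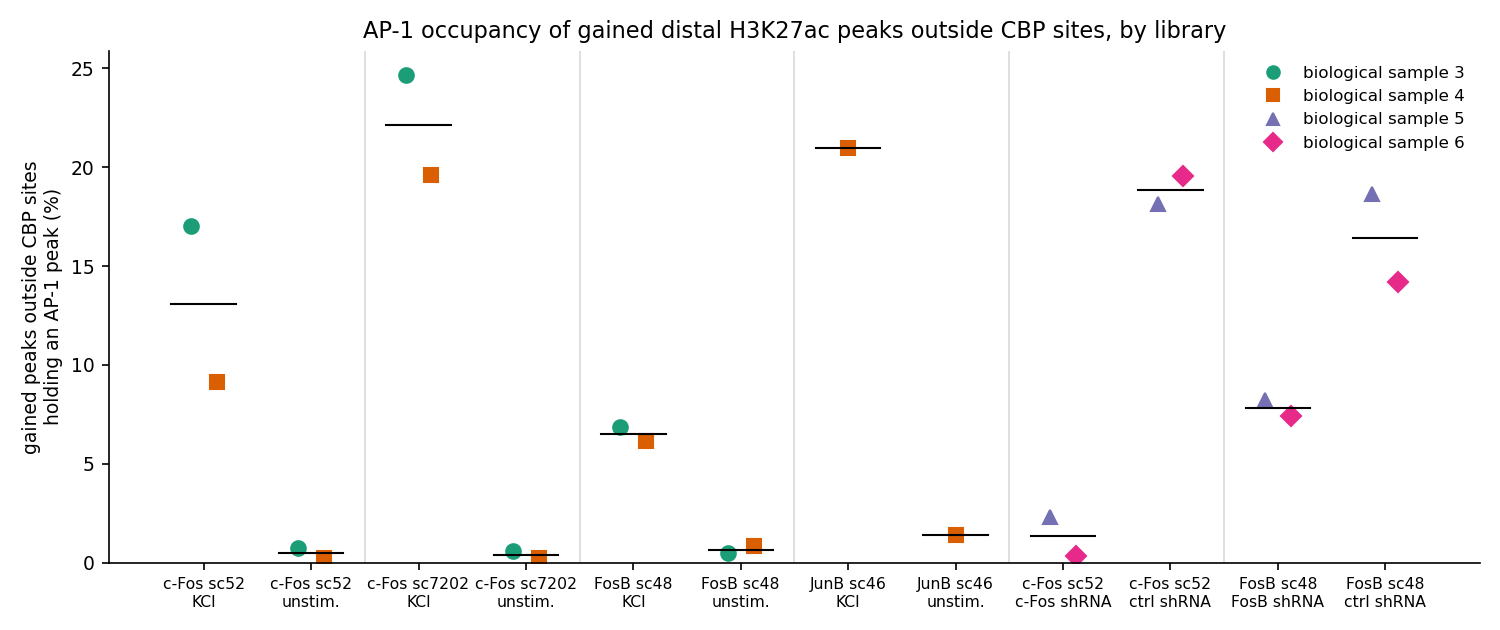
Share of the 3592 gained peaks outside CBP sites that held an AP-1 peak in each of the 22 libraries (percent); each point is 1 library, coloured by biological sample, and each bar is the mean of its group. The KCl c-Fos libraries sit between 9.16% and 24.7%, all above the unstimulated ones at 0.752% or less, and the c-Fos shRNA libraries lie at 2.34% and 0.362%.

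The unstimulated c-Fos peaks in these regions were few and were mostly listed again after KCl. Of the 27, 8, 21 and 9 regions occupied in unstimulated neurons (sc52 in samples 3 and 4, then sc7202 in samples 3 and 4), 21, 6, 15 and 9 were also occupied in the matching KCl library. This overlap was not taken over all KCl distal peaks, so it does not set these regions apart. In all, 39 of the 3592 regions held a c-Fos peak in at least 1 of the 4 unstimulated libraries, or 1.09%, against 2.93% of all KCl distal peaks.

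FosB was listed at fewer of these regions than c-Fos in biological samples 3 and 4. FosB peaks occupied 247 (6.88%) and 221 (6.15%) of the regions in KCl neurons, against 17 (0.473%) and 30 (0.835%) in unstimulated neurons. The groups did not overlap, and the difference was 5.86 points (exact two-sided permutation test, p = 0.33, n = 2 libraries each, the smallest p possible). With lists of equal length it was 1.85 points. Over all KCl distal peaks FosB was listed at 10.3% and 7.09% in KCl neurons, against 1.31% and 2.14% in unstimulated neurons, again in the same direction. In biological samples 5 and 6, which received KCl with a control shRNA, FosB peaks occupied 18.7% and 14.2%, more than in samples 3 and 4. The 4 FosB lists differed in length, with 22933 and 14139 peaks in samples 5 and 6 and 10898 and 4899 in samples 3 and 4.

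JunB, a partner of both Fos proteins, was mapped in a single library per condition. JunB peaks occupied 754 of the regions (20.99%) in KCl neurons and 50 (1.39%) in unstimulated neurons of biological sample 4, with no replicate check. Over all KCl distal peaks the shares were 22.5% in KCl neurons and 2.34% in unstimulated neurons. The KCl JunB list was 6.19 times as long as the unstimulated one. Of the JunB list's own peaks, 4.01% fell in the regions in KCl neurons and 1.70% in unstimulated neurons. This share of the list was not taken over all KCl distal peaks.

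The regions occupied by the 3 proteins overlapped. The overlaps were counted in the gained peaks outside CBP sites only. Whether they differ from those in other distal peaks was not tested. In biological sample 4, JunB occupied 310 of the 329 regions with a c-Fos sc52 peak after KCl (94.2%) and 201 of the 221 with a FosB peak (91.0%). Within each of the 4 cultures, between 70.1% and 91.1% of the FosB-occupied regions also held a c-Fos sc52 peak. The share in the other direction, of c-Fos sc52 regions with FosB, ran from 36.8% to 72.1%. Counting c-Fos with either antibody in sample 4, 193 regions held all 3 proteins and 358 held c-Fos and JunB without FosB. JunB alone was listed at 195 regions, c-Fos alone at 175 and FosB alone at 14. None of the 3 was listed at 2643 (73.6%). The 2 c-Fos antibodies overlapped unequally: sc7202 peaks were found at 91.0% and 91.5% of the regions occupied with sc52 in samples 3 and 4, while sc52 peaks were found at 62.8% and 42.8% of those occupied with sc7202.

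Taking all libraries of KCl neurons without an shRNA against the protein mapped (6 for c-Fos, 4 for FosB and 1 for JunB), 1176 of the 3592 regions (32.7%) held a c-Fos peak in at least 1 library, against a background of 37% of all KCl distal peaks. For FosB the count was 854 (23.8%) against 29%. JunB, at 754 (20.99%), stood against 22.5%. A peak of any of these proteins in any of the 11 libraries was found at 1355 (37.7%) against 42.9%, and peaks in all 11 at 98 (2.73%) against 3.02%. Positions in the combined list of c-Fos sites fell in 484 regions (13.5%) against 13.3%. All of these shares were close to or below the background, and are no result about the gained peaks outside CBP sites in particular. The remaining 2237 regions (62.3%) held no AP-1 peak in any of the 11 libraries. The same was true of 57.1% of all KCl distal peaks.

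The background mixes classes of very different occupancy. Holding no AP-1 peak in any of the 11 libraries was the case for 62.3% of the gained peaks outside CBP sites, 21.5% of the gained peaks with a CBP site, 69.0% of the shared peaks and 83.3% of the lost peaks. It was also the case for 32.2% of the 3747 peaks of both conditions that held a CBP site. The share without AP-1 was thus lower in both classes with a CBP site than in the gained peaks outside CBP sites, and higher in the shared and lost peaks, which have none.

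**Figure D2:**
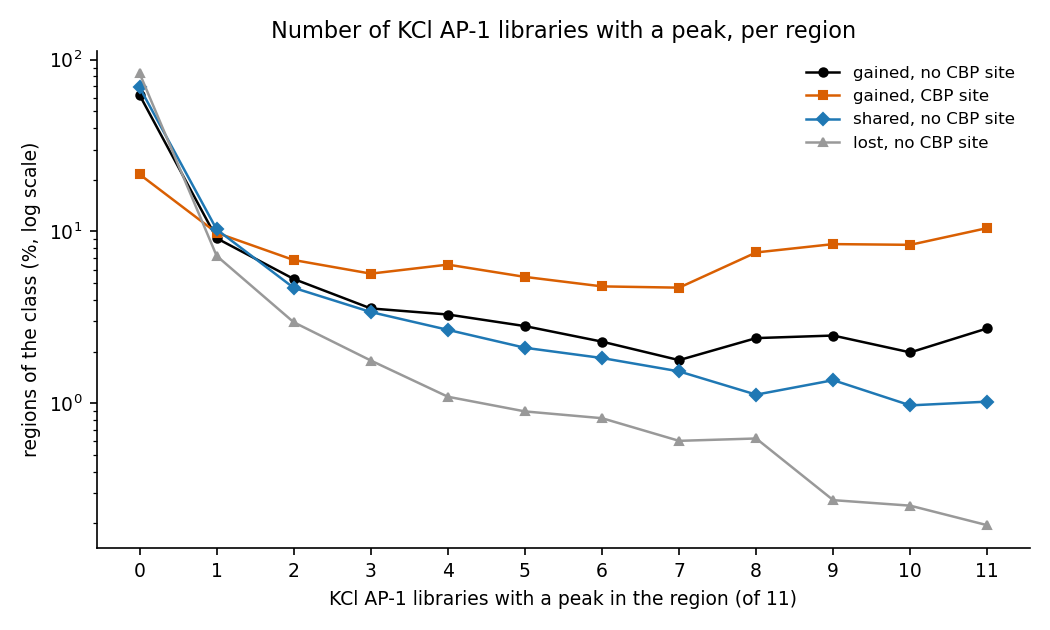
Percent of the regions of each class (log scale) by the number of the 11 KCl AP-1 libraries that listed a peak there. In the gained peaks outside CBP sites the share is 62.3% at 0 libraries, falls to 1.78% at 7 and is 2.73% at all 11, between the gained peaks with a CBP site (10.5% at all 11) and the shared peaks (1.02%).

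The single c-Fos libraries placed these classes in the same order, with a mean of 34.9% for the peaks of both conditions that held a CBP site. With libraries averaged to 1 value per culture, c-Fos peaks occupied 18.2% of the gained peaks outside CBP sites and 49.6% of the gained peaks with a CBP site, a difference of -31.4 points (SD of the differences 5.47, n = 4 cultures; lower in 6 of 6 libraries). Against the shared peaks, at 12.03%, the difference was 6.19 points (SD 2.70; higher in 6 of 6 libraries, from 2.93 to 9.76 points). Against the lost peaks, at 4.84%, it was 13.4 points (SD 1.57; higher in 6 of 6 libraries, from 7.85 to 16.3 points). An exact two-sided sign-flip test returned 0.13 as the p-value of each of the 3, as low as 4 cultures can go, and 0.13 after Benjamini-Hochberg adjustment over them. None of these differences can therefore be called at 0.05 by culture.

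**Figure D3:**
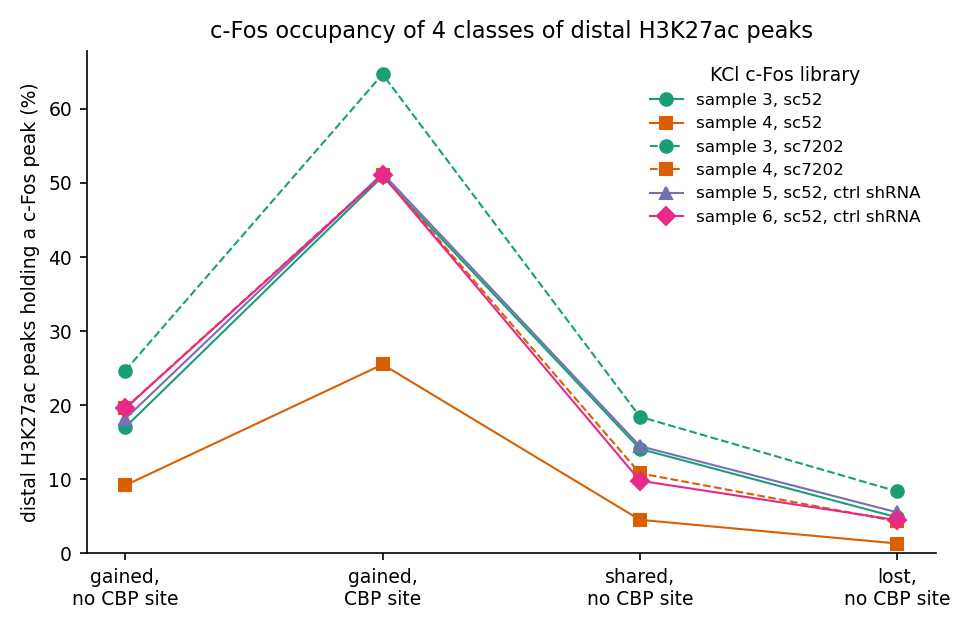
Share of regions holding a c-Fos peak (percent) in 4 classes of distal H3K27ac peaks, with 1 line per KCl c-Fos library (6 libraries from 4 cultures). Every line peaks at the gained peaks with a CBP site and descends through the gained peaks outside CBP sites, the shared peaks and the lost peaks in that order of height.

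The shared peaks were the wider and higher-scoring class, and the difference was therefore also taken over equal lengths and among high scores. When only the central 1000 bp of every peak was searched, the gained peaks outside CBP sites exceeded the shared peaks by 7.0 points. Among H3K27ac peaks that scored 100 or more they exceeded them by 10.3 points. With FosB in place of c-Fos the difference was 3.61 points.

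Among the gained peaks outside CBP sites, c-Fos occupancy differed with the strength of the acetylation. By quartile of the H3K27ac score, from lowest to highest and 898 regions each, the mean share over the 6 KCl c-Fos libraries was 14.7 ± 4.34%, 14.5 ± 4.57%, 16.7 ± 4.78% and 26.2 ± 6.71% (SD). The first 3 quartiles lay within each other's spread. The highest quartile had the highest mean, but its libraries ran from 14.5% to 34.9% and overlapped those of the third, from 8.02% to 22.4%. Its difference from the lowest was 11.5 points, and 6 of 6 libraries had the same sign (from 6.79 to 13.9 points). Regions in the highest quartile were also wider, with a median of 2310 bp against 1438 bp, and in the central 1000 bp alone the difference was 10.6 points. The part of width in it was not tested. The other classes also had their highest mean share in the highest quartile, at 60.9% against 41.5% in the lowest for gained peaks with a CBP site and 21.1% against 6.36% for shared peaks, so this order was found outside the regions described here as well.

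Occupancy also differed with the distance from the nearest unstimulated H3K27ac peak. The mean c-Fos share was 11.4% in the 181 regions nearer than 1000 bp, 15.3% between 1 and 5 kb, 17.1% between 5 and 20 kb, 18.8% between 20 and 100 kb and 25.3% in the 406 regions farther than 100 kb. The regions beyond 100 kb exceeded those within 5 kb by 11 points, and again 6 of 6 libraries, from 4 cultures, agreed in sign. Median H3K27ac scores did not run with this order, at 85.9 in the nearest group and 77.7 in the farthest. Both sets of strata were drawn after occupancies had been seen, so they are described without a test. The strata by distance were taken in the gained peaks outside CBP sites only, so whether other distal peaks show this order is not known here.

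**Figure D4:**
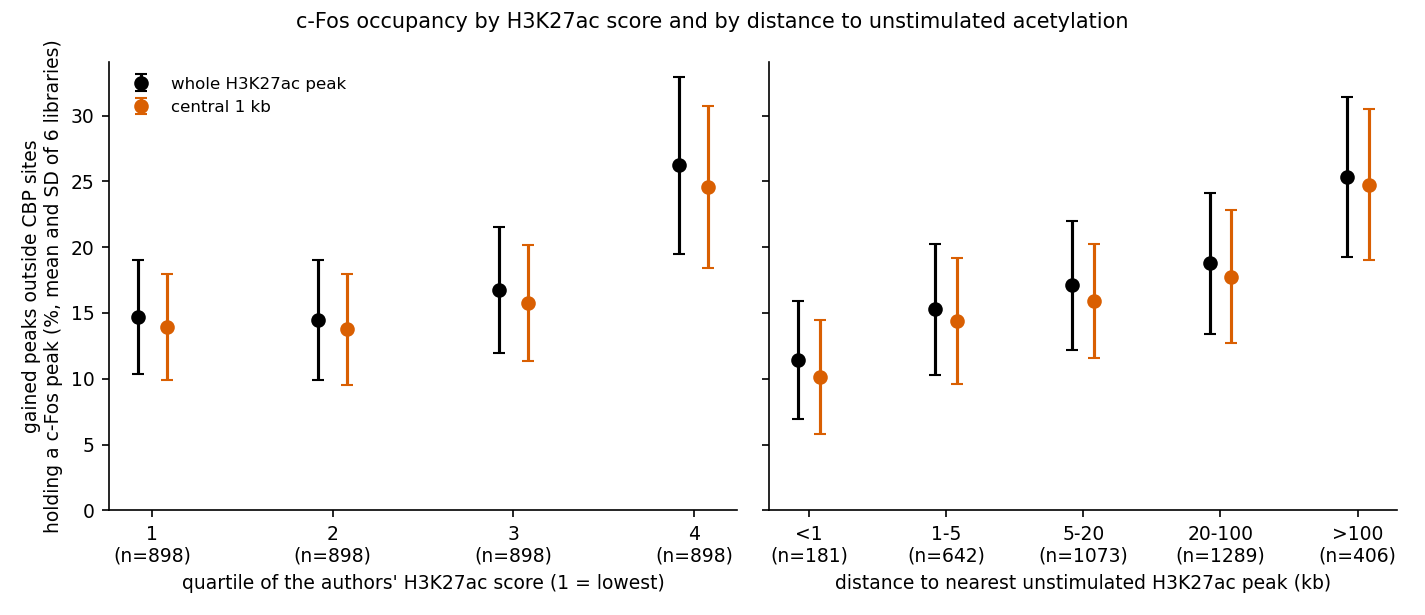
Share of gained peaks outside CBP sites that held a c-Fos peak (percent; mean and SD of 6 KCl libraries), by quartile of the authors' H3K27ac score on the left and by distance to the nearest unstimulated H3K27ac peak on the right, for whole peaks and for their central 1 kb. The mean is 14.7% in the lowest and 26.2% in the highest score quartile, and 11.4% nearest to and 25.3% farthest from unstimulated acetylation.

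Over whole peaks, distance from the CBP sites gave no such order. The 44 regions within 1000 bp of a CBP site had a mean c-Fos share of 26.5% over whole peaks but 12.9% in their central 1000 bp. Their difference from all other gained peaks outside CBP sites thus turned from 8.87 to -4.18 points with the part of the peak searched. Over whole peaks, regions farther than 100 kb from a CBP site were occupied at 21.3%, and those in between at 15.6% to 16.2%. In the central 1000 bp the means did rise with distance. From nearest to farthest they were 12.9%, 14.9%, 15.1%, 15.3% and 20.6%. These strata, too, were taken in the gained peaks outside CBP sites only, with no test.

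Where c-Fos was listed, its peak sat close to the middle of the acetylated region. In the 6 KCl c-Fos libraries the median distance between the centres of the c-Fos peak and of the H3K27ac peak was 210 to 229 bp, and 54.7% to 56.1% of the occupied regions had their c-Fos centre within 250 bp. In the shared peaks the medians were 262 to 316 bp and the shares 43.4% to 48.8%, so the ranges of the libraries did not overlap. In the gained peaks with a CBP site c-Fos lay closer still to the middle, with medians of 186 to 203 bp and 56.4% to 60.7% within 250 bp. The shared peaks are wider, and as a fraction of the distance from the peak's centre to its edge the medians did overlap, at 0.195 to 0.218 in the gained peaks outside CBP sites and 0.197 to 0.241 in the shared peaks. FosB centres lay 186 to 212 bp from the middle of the gained peaks outside CBP sites, and JunB centres 217.5 bp.

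**Figure D5:**
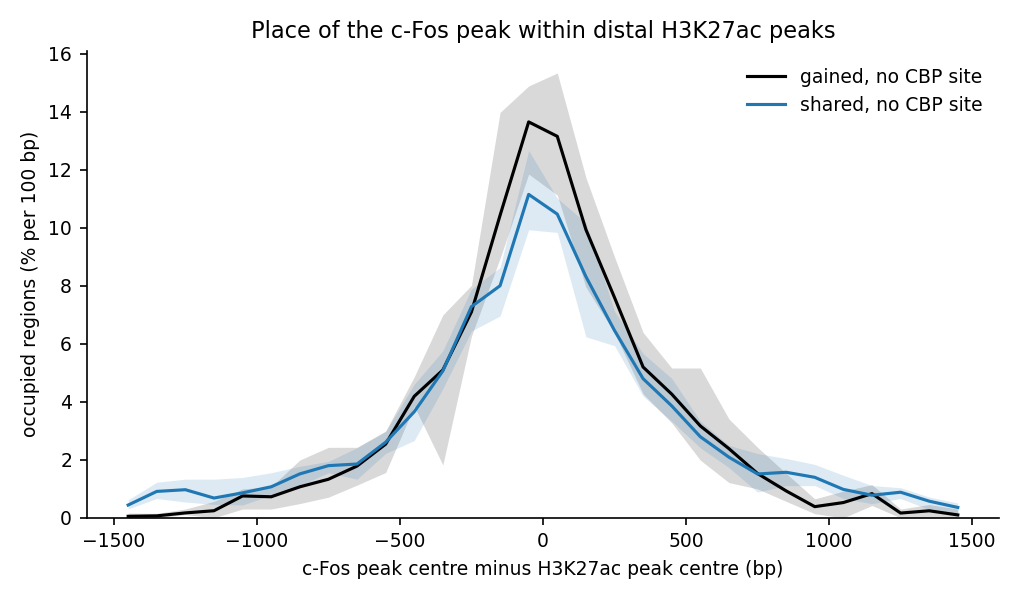
Distance from the centre of the H3K27ac peak to the centre of the c-Fos peak (bp), as percent of occupied regions per 100 bp; lines are means and bands the lowest and highest of 6 KCl libraries. Both classes peak at the centre, and 54.7% to 56.1% of the occupied gained peaks outside CBP sites have their c-Fos centre within 250 bp.

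The shRNA libraries show how many of these occupied regions were still listed under an shRNA against the protein mapped, with the protein itself not measured. c-Fos peaks occupied 84 (2.34%) and 13 (0.362%) of the 3592 regions under c-Fos shRNA, against 652 (18.2%) and 702 (19.5%) under control shRNA in biological samples 5 and 6. Over all KCl distal peaks the shares were 6.74% and 0.884% under c-Fos shRNA, against 22.2% and 19.02% under control shRNA, lower under c-Fos shRNA there too. In the gained peaks outside CBP sites the difference was -17.5 points (exact two-sided permutation test, p = 0.33, n = 2 libraries each, the smallest p possible). The c-Fos lists were also shorter under c-Fos shRNA, with 7808 and 1793 peaks against 23578 and 19131, and at equal list length the difference was -1.87 points. Of the lists' own peaks, 1.10% and 0.725% fell in the regions under c-Fos shRNA, against 2.84% and 3.73% under control shRNA. That share, too, was not taken over all KCl distal peaks.

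Of the gained peaks outside CBP sites occupied under control shRNA, 64 of 652 (9.82%, Wilson interval 7.76% to 12.3%) and 10 of 702 (1.42%, 0.776% to 2.60%) were also occupied under c-Fos shRNA. In the shared peaks the shares were 31.2% and 8.29%, higher in both cultures than in the gained peaks outside CBP sites. The gained peaks with a CBP site had 17.6% and 0.795%, on either side of them. The peaks of both conditions that held a CBP site had 22.9% and 1.80%. The second value lay inside the interval of the gained peaks outside CBP sites. In the lost peaks the shares were 11.3% (Wilson interval 8.12% to 15.5%) and 2.62% (1.21% to 5.60%). These intervals overlapped those of the gained peaks outside CBP sites in both cultures. The share still occupied under c-Fos shRNA was not taken over all KCl distal peaks.

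FosB under its own shRNA gave a smaller difference. FosB peaks occupied 8.24% and 7.43% of the regions under FosB shRNA, against 18.7% and 14.2% under control shRNA, a difference of -8.59 points (exact two-sided permutation test, p = 0.33, n = 2 libraries each, the smallest p possible). At equal list length it was -1.45 points. Over all KCl distal peaks the shares were 14.3% and 9.10% under FosB shRNA, against 24.6% and 14.7% under control shRNA. Of the regions occupied under control shRNA, 34.6% and 38.6% were also occupied under FosB shRNA, against 34.8% and 35.4% of the shared peaks. The shares were higher in the gained peaks with a CBP site, at 51.9% and 41.1%. In the peaks of both conditions that held a CBP site they were higher too, at 55.0% and 46.7%. The lost peaks had 31.5% and 36.5%. The share still occupied was not taken over all KCl distal peaks.

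The regions with the most AP-1 libraries were also the more strongly acetylated ones. The 2237 regions without any AP-1 peak had a median width of 1690 bp and a median score of 80.3, and 31.0% of them scored 100 or more. The 98 regions occupied in all 11 libraries had medians of 2187 bp and 117, and 56.1% scored 100 or more. The regions occupied in 1 to 5 and in 6 to 10 libraries lay between, with median scores of 85.8 and 95.7. A wider region can overlap more peaks, and the part of width in this order was not tested. Scores and widths of other classes were not sorted by number of libraries. In the 98 regions, with 1 peak taken per library, the 11 AP-1 centres spread over a median of 197.5 bp. Further peaks of a library in the same region were left out. This spread was not taken in other distal peaks.

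Of these 98 regions, the 6 with the highest H3K27ac scores were chr11:102105346-102108089, chr18:37306471-37310531, chr1:79576629-79579556, chr3:32393893-32396608, chr7:98954545-98957135 and chr17:57938378-57941968, with scores of 650.76, 629.06, 578.36, 440.91, 438.49 and 424.51. None of the 6 held a peak in any of the 7 unstimulated AP-1 libraries, and each contained a position that the authors had placed in their combined list of c-Fos sites. They lay 1194 to 28889 bp from the nearest unstimulated H3K27ac peak and 21524 to 363054 bp from the nearest CBP site.

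The region on chromosome 11 held some of the strongest AP-1 peaks of the study. Its c-Fos peaks scored 1393.4 and 455.98 with sc52 and 1960.66 and 953.71 with sc7202 in KCl neurons of biological samples 3 and 4, and 0.340%, 2.57%, 0.121% and 0.111% of the peaks in those lists scored higher. Its JunB peak scored 943.26, with 0.207% of the list above it. Its FosB peaks ranked less evenly. In KCl neurons of samples 3 and 4, 0.220% and 3.88% of the FosB lists scored higher. With control shRNA in samples 5 and 6 the values were 0.262% and 36.3%. Under control shRNA the c-Fos peaks scored 1301.2 and 466.26 in samples 5 and 6. Under c-Fos shRNA a peak with a score of 212.77 was listed in sample 5 and none in sample 6. The AP-1 centres in this region spread over 613 bp, from -399 to 214 bp around its centre.

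The region on chromosome 1 was similar but more compact. With 1 peak taken per library, the 11 AP-1 centres lay within 177 bp of each other. They were at most 98 bp from the middle of the acetylated region. FosB with control shRNA in sample 6 listed 2 peaks there, of which 1 was measured. Its c-Fos peaks scored 841 and 252.44 with sc52 and 1213.31 and 589.93 with sc7202 in samples 3 and 4. FosB peaks were listed there under FosB shRNA as well, with scores of 381.25 and 125.72 in samples 5 and 6, against 472.73 and 445.91 under control shRNA.

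The regions on chromosomes 18, 3 and 17 placed their AP-1 peaks to one side. With 1 peak taken per library, the median offsets were 498, 534 and 619 bp from the centre of the H3K27ac peak. Some libraries listed 2 peaks in these regions. The peaks on chromosomes 3 and 7 were weaker, and with AP-1 peaks that scored 100 or more these regions were occupied in 6 of 11 libraries each.

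The strongest acetylation among the gained peaks outside CBP sites was not where AP-1 was listed most often. The highest score, 1380.28, belonged to chr5:130701759-130705074, where none of the 11 libraries had a peak, 2327 bp from an unstimulated H3K27ac peak. The next were chr13:9428689-9431943 (score 1270.85) with 1 library, chr15:101082818-101086113 (1147.36) with 3, chr14:99561042-99564303 (906.43) with 10, chr17:70664541-70667928 (881.83) with 6 and chr11:79331801-79334735 (858.53) with 3. With AP-1 peaks that scored 100 or more, the counts were 0 on chromosomes 13 and 15 and 1 on chromosome 17.

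On chromosome 14 the exception among the 11 was FosB in biological sample 3, and the c-Fos peaks scored 114.2 and 116.27 with sc52 and 232.02 and 225.27 with sc7202 in KCl neurons of samples 3 and 4. The region on chromosome 17 was occupied by c-Fos in all 6 of its KCl libraries, with scores of 56.05 to 174.09, and by neither FosB nor JunB. After the region on chromosome 5, the regions without any AP-1 peak that had the highest H3K27ac scores were chr14:77290187-77292713 (600.75), chr3:158017931-158020792 (540.63) and chr9:106541553-106544206 (435.43). They lay 6680, 43294 and 13689 bp from the nearest unstimulated peak.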

How the data were processed

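The authors' deposited ChIP-seq peak lists were the starting point. Alignment was with BWA (no version stated) to build mm9, per the submitters' processing notes. The peak names in the deposited lists begin with MACS, whose version and control library have no statement in the sources used here. The score in the deposited lists is that of MACS, at least 50 (1e-05). Ranks by score were taken within a list. Where scores of different lists stand side by side, they were not brought to a common scale and are description. The authors' AP-1 lists come from 1 library each, and their H3K27ac lists from biological samples 1 and 2 merged, per the labels. CBP sites, their 4 acetylation classes and the combined c-Fos sites are deposited as other values, positions without width, with no account of their making in the sources used here. Input DNA was not analysed here, and genes, motifs and sequences were not analysed here for want of a genome or annotation of build mm9.

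Groups and biological sample numbers came from the labels, and a number names the biological sample a library was made from. Among the gained peaks outside CBP sites, sample 3 had a higher share than sample 4 in 5 of 6 groups, and sample 5 than sample 6 in 3 of 4. Nothing states whether the biological samples were separate dissections, so p-values measure only the spread between the libraries or samples compared. For c-Fos in KCl and unstimulated neurons this spread mixes antibodies with cultures, since both antibodies were used in the same biological samples. Overlap needed 1 bp. Shares per library were compared by exact permutation of library labels, or (between classes) by exact sign flips of 1 mean difference per biological sample. Wilson 95% intervals cover counting error only.

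The regions and comparisons were chosen with earlier results of these data known. The regions named were the 6 with most of the 11 KCl AP-1 libraries (ties by H3K27ac score), the 6 with the highest H3K27ac score, the 4 highest without AP-1, and the 3 on each side of the overlap limit. Alternatives were a peak centre rule, scores of at least 100 (1e-10), the central 1000 bp, a 1000 bp margin, autosomes, lists of equal length, single antibodies, FosB for c-Fos, leaving out a biological sample, and a replicate block. In a check of the overlap code, 200 AP-1 peaks were planted in the 3592 regions, and 100% were found. Calls where a direct comparison of all pairs found no overlap came to 0% of the regions. This checks the counting only and says nothing about the detection of real peaks. Python 3.11.15, numpy 2.4.6, scipy 1.17.1 and matplotlib 3.10.9 were used.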

Additional observations from a re-analysis of the deposited data

Results flagged for a closer look

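In the difference in c-Fos share between gained peaks outside and with a CBP site, 1 of the 6 KCl libraries stood apart from the others. It was sc52 in biological sample 4, with -16.3 points, while the other 5 lay between -40.0 and -31.5 points. The share in this library was 9.16% outside and 25.5% with a CBP site, and its list of 6808 peaks was the shortest of the 6. Whether list length accounts for the gap was not tested. Of 11 groups of values examined in this way, chance flags about 1 in 20.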

How the results depend on the processing

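Depth is unknown, list length moves with the condition, and H3K27ac has no replicate, so a region called gained may have been missed in the unstimulated list. The difference in c-Fos share between KCl and unstimulated neurons lost its call with lists of equal length (0.599 points, exact permutation p = 0.0571), with the replicate block (17.2 points, exact sign-flip p = 0.13), with sc52 alone (12.6 points) or sc7202 alone (21.7 points), and without biological sample 3 or 4 (14.1 to 20.2 points); the last 3 compare 2 libraries with 2 and can give no p under 0.33. Within the c-Fos lists' own peaks it lost its call with scores of at least 100 (2.83 points), equal length (3.64 points), the replicate block (2.66 points, exact sign-flip p = 0.13), sc52 alone (3.23 points), sc7202 alone (2.09 points) and without sample 3 or 4 (1.95 to 3.37 points). With no replicate block and each of 6 libraries as 1 value, the class differences of -31.1 points (gained with a CBP site), 6.02 points (shared) and 13.2 points (lost) had an exact sign-flip p of 0.03125 each, but libraries then share cultures. Without 1 culture they ran from -33.9 to -29.5, from 5.01 to 7.03 and from 12.8 to 14.0 points. The JunB share was 11.1% with scores of at least 100 and 27.4% in regions with an H3K27ac score of at least 100, of which there were 1295. The shRNA differences and the FosB difference kept their sign in every alternative run. The cause was not tested for any of these. Alternatives for the count of regions, for regions without AP-1 and for the named regions were added after the data were seen.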
